A study of Homo sapiens with 8 samples.

Results

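The 10 genes MYL9, TAGLN, ACTA2, TPM1, TPM2, CNN2, CNN3, ACTN1, VCL and FLNA encode parts of the contractile actin cytoskeleton, several of them best known from smooth muscle. They were taken by symbol from the deposited expression table, in which each is 1 of 29991 entries. The RNA came from MCF10A cells, an established non-tumorigenic human breast epithelial line. The cells were transfected with siRNA against LATS1, LATS2 and p53 together (siLATS1/2/p53), against LATS1 and LATS2 (siLATS1/2), against p53 (sip53), or with control siRNA (siControl). LATS1 and LATS2 are the Hippo pathway kinases that restrain the transcriptional co-activators YAP and TAZ, and p53 is a transcription factor. Each group held 2 libraries of polyadenylated RNA, 1 from each of 2 independent batches of cells, so 8 libraries in all. All groups shared the parental line and a transfection with siRNA, and the design held no untransfected cells. Knockdown was by siRNA, and the RNAs of LATS1 and LATS2 stayed above the lowest recorded level in every library.

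Non-muscle cells pull on their surroundings with bundles of actin filaments and myosin II. The regulatory light chain of myosin II switches the motor on when phosphorylated, tropomyosins and calponins coat and stabilise the filaments, alpha-actinin and filamin cross-link them, and vinculin couples them to adhesions. Many of these genes are transcribed by serum response factor (SRF) with its actin-sensing cofactors, and several are also known targets of YAP and TAZ acting through TEAD proteins.

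The labels were checked against LATS1 and LATS2 and against markers. Levels below are the deposited log2 values, whose floor is 5 (32 on the linear scale). LATS1 stood at 7.97 and 7.90 in siLATS1/2/p53 cells and at 7.93 and 8.10 in siLATS1/2 cells, against 9.87 and 9.94 in sip53 cells and 9.54 and 9.64 in siControl cells (batch 1 and batch 2 in each case). LATS2 was likewise low in the groups named for its siRNA, where it lay between 8.63 and 8.81, against 9.74 to 10.22 in the other groups. Of 8 smooth muscle markers, 7 were at the floor in all 8 libraries, namely MYH11, DES, LMOD1, SYNPO2, ACTG2, CNN1 and MYOCD. SMTN was the exception, with a linear level of 1149 to 1634 in siLATS1/2/p53 cells, 1530 to 1699 in siLATS1/2 cells, 1672 to 2202 in sip53 cells and 2092 to 2267 in siControl cells. All 7 basal epithelial markers (KRT5, KRT14, KRT17, KRT6A, TP63, ITGB4, LAMB3) were above the floor in every library. The summed linear level of these 7 was 166059 to 207424 in siLATS1/2/p53 cells, 170177 to 216046 in siLATS1/2 cells, 170981 to 226582 in sip53 cells and 212149 to 291774 in siControl cells. All 7 averaged lower in siLATS1/2 than in siControl cells. None passed, but 6 did with the batch blocked, a fit that called 32% of all entries (21.4% lower). LAMB3 fell in sip53 cells relative to siControl cells (log2 difference -0.93 ± 0.18 SE, limma adjusted p = 0.0402). Of the 7 it alone passed there, against 3.86% of all entries (2.1% lower). With the batch blocked 4 passed lower and 1 higher, against 26% of all entries (16% higher and 10% lower). TP63, ITGB4 and LAMB3 fell in siLATS1/2/p53 cells relative to siControl cells, by 0.92 ± 0.17, 0.80 ± 0.20 and 0.82 ± 0.18. In that comparison 14.6% of all entries were called (5.48% lower). With the batch blocked 4 of the 7 passed, all lower, against 39.2% of all entries (13.8% lower). The part of these markers in the results was not tested. Of 8 fibroblast markers, 6 were at the floor throughout. The summed linear level of the whole fibroblast list was 181 to 537 in siLATS1/2/p53 cells, 175 to 449 in siLATS1/2 cells, 168 to 873 in sip53 cells and 325 to 1090 in siControl cells, carried by COL1A1 and DCN. DCN was higher in batch 1 than in batch 2 in every group. Its log2 level was 8.39 and 5 in siLATS1/2/p53 cells, 7.87 and 5 in siLATS1/2 cells, 9.53 and 6.14 in sip53 cells, and 9.86 and 7.02 in siControl cells. The part of the fibroblast list in the results was not tested. Of 5 blood and endothelial markers, 4 were at the floor throughout, CD68 being the exception. The number of cells of a type and the RNA per cell cannot be told apart in such bulk samples.

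The promoters of 8 of the 10 genes are held in a RefSeq table (GRCh38.p14) as 14 windows of 300 bases, from 250 bases before to 50 bases after a transcript start. MYL9 and TAGLN have no window there. The windows were searched for the CArG box, the element bound by SRF, on both strands. It occurs in 1.29% of all 35116 windows, and 6.94% hold a form with 1 C or G in its middle. They were also searched for GGAATG, the core of the element bound by TEAD proteins, again on both strands, which 14% of all windows hold. A CArG box was found in 3 of the 14 windows, 1 each of CNN2, ACTN1 and FLNA. The relaxed form was found 2 times in an ACTA2 window. GGAATG was found in 4 of the 14 windows, 1 each of ACTA2, CNN3, ACTN1 and VCL, and no match of one motif overlapped a match of another. These matches describe the letters only. The 3 windows shown next place the element in the smooth muscle actin gene beside that in a calponin and a filamin gene; capitals mark the CArG box or its relaxed form.
ACTA2, chr10:88952724-88953023, minus strand: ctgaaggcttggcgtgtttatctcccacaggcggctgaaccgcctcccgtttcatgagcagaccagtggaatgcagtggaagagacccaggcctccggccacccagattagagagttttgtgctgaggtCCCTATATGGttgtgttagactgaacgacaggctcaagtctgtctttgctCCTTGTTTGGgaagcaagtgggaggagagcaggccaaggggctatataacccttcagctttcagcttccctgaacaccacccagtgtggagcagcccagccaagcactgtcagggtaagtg
CNN2, chr19:1026358-1026657, plus strand: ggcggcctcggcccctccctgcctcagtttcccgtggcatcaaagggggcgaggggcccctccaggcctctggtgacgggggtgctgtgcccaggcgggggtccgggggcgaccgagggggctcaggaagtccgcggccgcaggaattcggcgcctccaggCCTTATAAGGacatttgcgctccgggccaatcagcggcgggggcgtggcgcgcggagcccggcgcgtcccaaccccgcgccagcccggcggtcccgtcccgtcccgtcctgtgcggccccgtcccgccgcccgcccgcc
FLNA, chrX:154374585-154374884, minus strand: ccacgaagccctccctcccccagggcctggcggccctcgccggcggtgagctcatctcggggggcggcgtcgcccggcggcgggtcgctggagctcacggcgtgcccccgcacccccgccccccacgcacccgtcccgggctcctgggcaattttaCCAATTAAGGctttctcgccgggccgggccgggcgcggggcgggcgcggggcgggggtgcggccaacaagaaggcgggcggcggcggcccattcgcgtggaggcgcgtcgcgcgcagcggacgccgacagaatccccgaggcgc
In ACTA2 the 2 relaxed matches began 121 and 71 bases before the start and GGAATG began 183 bases before it. The CArG box began 89 bases before the start in CNN2 and 94 bases before it in FLNA.

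MYL9 encodes a regulatory light chain of myosin II. Its log2 level was 8.24 and 7.82 in siLATS1/2/p53 cells, 8.75 and 8.72 in siLATS1/2 cells, 5.91 and 5.69 in sip53 cells, and 7.37 and 7.28 in siControl cells. The 4 groups did not overlap, with siLATS1/2 highest and sip53 lowest. On the linear scale these levels are 303 and 227 in siLATS1/2/p53 cells, 431 and 422 in siLATS1/2 cells, 60.3 and 51.5 in sip53 cells, and 166 and 155 in siControl cells, so that sip53 cells came close to the floor of 32. Reads of MYL9 may also be shared with the closely similar light chain genes MYL12A and MYL12B.

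TAGLN encodes transgelin, an actin-binding protein of the calponin family. Its log2 level was 9.93 and 9.95 in siLATS1/2/p53 cells, 10.94 and 11.09 in siLATS1/2 cells, 8.38 and 8.23 in sip53 cells, and 9.42 and 9.66 in siControl cells. The order of the groups was that of MYL9, again without overlap. ACTA2 encodes smooth muscle alpha-actin, whose coding sequence is close to those of the other actins, so its reads could have been split among them. Its log2 level was 6.83 and 6.84 in siLATS1/2/p53 cells, 7.07 and 7.46 in siLATS1/2 cells, 6.43 and 6.69 in sip53 cells, and 7.49 and 7.88 in siControl cells. ACTA2 was thus highest in siControl cells, unlike MYL9 and TAGLN, and no groups overlapped.

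The tropomyosins wind along actin filaments and set which myosins and severing proteins reach them. TPM1 was at 11.09 and 10.91 in siLATS1/2/p53 cells, 11.71 and 11.56 in siLATS1/2 cells, 10.14 and 9.75 in sip53 cells, and 10.22 and 10.06 in siControl cells. The sip53 and siControl libraries overlapped, and both groups with LATS1/2 siRNA lay above them. TPM2 was at 11.46 and 11.30 in siLATS1/2/p53 cells, 11.19 and 10.91 in siLATS1/2 cells, 11.03 and 10.97 in sip53 cells, and 10.88 and 10.98 in siControl cells. Only the siLATS1/2/p53 libraries stood apart, with the other 3 groups overlapping.

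Of the calponins that bind actin outside smooth muscle, CNN3 was at 10.51 and 10.16 in siLATS1/2/p53 cells, 9.97 and 9.86 in siLATS1/2 cells, 9.54 and 9.34 in sip53 cells, and 9.57 and 9.45 in siControl cells. The 2 groups with LATS1/2 siRNA lay above the other 2, which overlapped. CNN2, which has processed copies elsewhere in the genome that could take some of its reads, was at 11.88 and 12.04 in siLATS1/2/p53 cells, 11.88 and 12.15 in siLATS1/2 cells, 11.39 and 11.86 in sip53 cells, and 11.57 and 12.05 in siControl cells. Its batch 2 library was the higher in every group, by 0.16 to 0.48, and between its 2 siControl libraries lay at least 1 library of each other group.

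Filamin, alpha-actinin and vinculin join filaments to each other and to adhesions. FLNA encodes filamin A, which cross-links filaments into networks, and was at 14.90 and 14.97 in siLATS1/2/p53 cells, 14.91 and 15.03 in siLATS1/2 cells, 14.48 and 14.57 in sip53 cells, and 14.61 and 14.83 in siControl cells. ACTN1 encodes alpha-actinin 1, which bundles filaments, and was at 14.30 and 14.34 in siLATS1/2/p53 cells, 14.31 and 14.53 in siLATS1/2 cells, 13.98 and 14.07 in sip53 cells, and 14.29 and 14.34 in siControl cells. For both genes the 2 sip53 libraries lay below all 6 others. VCL encodes vinculin and was at 13.33 and 13.24 in siLATS1/2/p53 cells, 13.21 and 13.13 in siLATS1/2 cells, 13.21 and 13.11 in sip53 cells, and 13.30 and 13.17 in siControl cells. All 8 VCL libraries lay within 0.22.

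**Figure D1:**
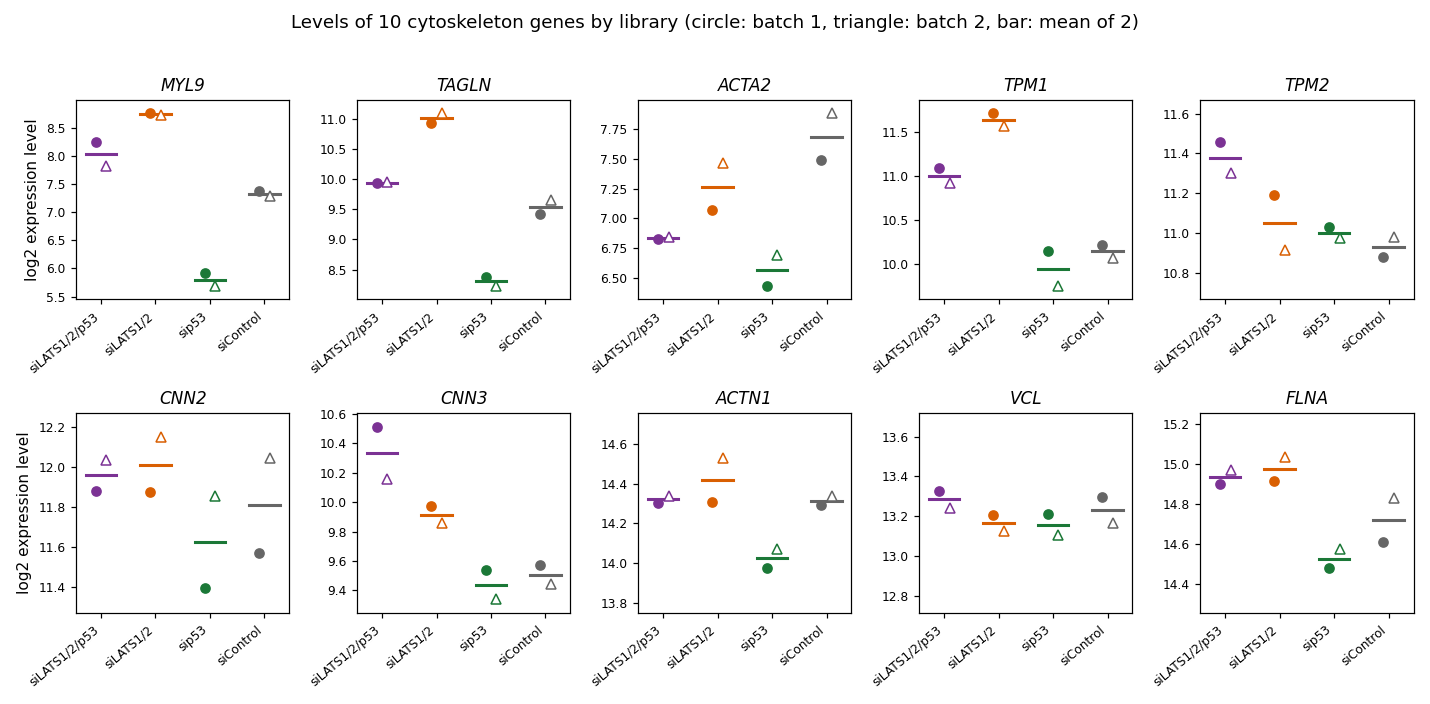
Deposited log2 level of each of the 10 genes in the 8 libraries, by siRNA group, with circles for batch 1, triangles for batch 2 and a bar at the group mean. MYL9 and TAGLN span the widest ranges, 3.07 and 2.86, and VCL the narrowest, 0.22.

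The spread over the 8 libraries differed among the 10 genes: 3.07 for MYL9, 2.86 for TAGLN, 1.96 for TPM1, 1.45 for ACTA2 and 1.17 for CNN3, but 0.76 or less for CNN2, TPM2, FLNA, ACTN1 and VCL. The likeness of 2 genes was measured as the root-mean-square difference of their log2 profiles after each was centred on its own mean. The closest pairs were ACTN1 and FLNA (0.0933), CNN2 and FLNA (0.124) and CNN2 and ACTN1 (0.155), all genes with a narrow range. MYL9 and TAGLN differed by 0.258, whereas the 2 tropomyosins differed by 0.634 and the 2 calponins by 0.377. MYL9 and ACTA2 differed by 0.990, close to the largest distance, 1.08, between MYL9 and VCL.

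The first comparison concerned the loss of LATS1/2 alone. The myosin light chain MYL9, the filament coat gene TAGLN and the tropomyosin TPM1 rose 2.66-fold to 2.82-fold in siLATS1/2 cells relative to siControl cells, while ACTA2 averaged lower. MYL9 was higher by 1.41 ± 0.18 on the log2 scale (SE, 2.66-fold, adjusted p = 0.00744), and TAGLN by 1.48 ± 0.12 (2.78-fold, adjusted p = 0.0018). TPM1 was higher by 1.50 ± 0.15 (2.82-fold, adjusted p = 0.00352). Within batch 1 and batch 2 the difference was 1.38 and 1.44 for MYL9, 1.52 and 1.43 for TAGLN, and 1.49 and 1.50 for TPM1. The p-values are those of limma, adjusted by the Benjamini-Hochberg method over all 12315 entries tested with a threshold of 0.05. Of the 10 genes 3 passed, all upward, against 7.7% of all entries (2.81% higher and 4.89% lower). The median difference of the 10 was 0.23, against -0.07 over all entries. The other 7 genes did not pass: CNN3 differed by 0.41 ± 0.14, FLNA by 0.26 ± 0.11, CNN2 by 0.20 ± 0.20, TPM2 by 0.12 ± 0.11, ACTN1 by 0.10 ± 0.10, VCL by -0.07 ± 0.09 and ACTA2 by -0.42 ± 0.21. The 95% interval for ACTA2 ran from -0.90 to 0.06 (adjusted p = 0.256). A model that blocked the batch passed 5 genes, all upward, against 32% of all entries (10.5% higher and 21.4% lower). CNN3 (adjusted p = 0.00441) and FLNA (adjusted p = 0.013) were added. In the main model the share of all entries called fell whichever library was left out, so losing calls was not particular to these genes. Without siLATS1/2 replicate 1 only TAGLN passed (MYL9 at adjusted p = 0.0919, TPM1 at 0.0666), and without siLATS1/2 replicate 2 MYL9 was lost (0.067).

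The second comparison concerned the loss of p53 alone. MYL9, TAGLN and ACTA2 all fell in sip53 cells relative to siControl cells, by 2.18-fold to 2.88-fold, whereas TPM1 did not pass. MYL9 fell by 1.53 ± 0.18 on the log2 scale (SE, 2.88-fold lower, adjusted p = 0.00977), and TAGLN by 1.23 ± 0.12 (2.35-fold lower, adjusted p = 0.0068). ACTA2 fell by 1.12 ± 0.21 (2.18-fold lower, adjusted p = 0.0367). Within batch 1 and batch 2 the difference was -1.46 and -1.59 for MYL9, -1.04 and -1.43 for TAGLN, and -1.06 and -1.19 for ACTA2. These were 3 of the 10 genes, all downward, against 3.86% of all entries tested (1.76% higher and 2.1% lower). The median difference of the 10 genes was -0.19, against 0.06 over all entries. TPM1 differed by -0.20 ± 0.15 (adjusted p = 0.485), ACTN1 by -0.29 ± 0.10, FLNA by -0.19 ± 0.11, CNN2 by -0.18 ± 0.20, and CNN3, TPM2 and VCL by 0.07 or less in either direction. With the batch as a block ACTN1 passed as well (adjusted p = 0.00848), giving 4 genes, all lower, against 26% of all entries (16% higher and 10% lower). These calls rested on few libraries, and the share of all entries called also fell whichever library was left out. No gene passed without sip53 replicate 1 or without sip53 replicate 2, and only TAGLN passed without any 1 of the siControl or siLATS1/2 libraries. ACTA2 was lost whichever of the 8 libraries was left out (adjusted p = 0.0714 to 0.231), and MYL9 in 6 of the 8 fits (up to 0.105). The direction of these 3 genes held in all of these fits.

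Against siControl cells, siLATS1/2/p53 cells had more MYL9, TPM1, TPM2 and CNN3 and less ACTA2. TPM1 was higher by 0.86 ± 0.15 (SE, 1.81-fold, adjusted p = 0.011), CNN3 by 0.83 ± 0.14 (1.77-fold, adjusted p = 0.0115) and MYL9 by 0.71 ± 0.18 (1.63-fold, adjusted p = 0.0377). TPM2 was higher by 0.45 ± 0.11 (1.36-fold, adjusted p = 0.0392), a call lost when the libraries were rescaled by the median of ratios (adjusted p = 0.0568). ACTA2 fell by 0.85 ± 0.21 (1.81-fold lower, adjusted p = 0.0339). Within the batches these differences ran from 0.32 for TPM2 in batch 2 to 0.94 for CNN3 in batch 1, and for ACTA2 they were -0.66 and -1.04. Thus 4 of the 10 genes rose and 1 fell, against 14.6% of all entries called in either direction (9.07% higher and 5.48% lower). The median difference was 0.31, against 0.08 over all entries. TAGLN averaged 9.94 ± 0.01 in siLATS1/2/p53 cells and 9.54 ± 0.17 in siControl cells (SD, n = 2 each), a difference of 0.40 ± 0.12 that did not pass (adjusted p = 0.0625, or 0.00673 with batch blocked). FLNA also passed with that block (adjusted p = 0.0249), giving 6 higher and 1 lower against 39.2% of all entries (25.5% higher and 13.8% lower). No gene passed without siControl replicate 2 or without siLATS1/2/p53 replicate 1. The count fell to 2 without siControl replicate 1, siLATS1/2/p53 replicate 2 or either sip53 library. The share of all entries called fell as well, whichever library was left out. This comparison shares its siControl libraries with the first and second, so their values are not independent.

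Adding p53 siRNA to LATS1/2 siRNA lowered the 3 genes that LATS1/2 siRNA had raised. Relative to siLATS1/2 cells, siLATS1/2/p53 cells had 2.10-fold less TAGLN (log2 difference -1.07 ± 0.12 SE, adjusted p = 0.00545) and 1.63-fold less MYL9 (-0.70 ± 0.18, adjusted p = 0.0386). They had 1.55-fold less TPM1 (-0.64 ± 0.15, adjusted p = 0.0296). Within batch 1 and batch 2 the difference was -1.005 and -1.14 for TAGLN, -0.51 and -0.90 for MYL9, and -0.62 and -0.65 for TPM1. The siLATS1/2 libraries are those of the first comparison, so the values of both are not independent. These 3 genes fell against a median over all entries of 0.15, a shift that rescaling of the libraries brought to -0.003, and all 3 also passed after it. Of all entries 14.5% were called, 11.3% higher and 3.22% lower. CNN3, which differed by 0.42 ± 0.14, and TPM2, by 0.33 ± 0.11, lay on the other side and did not pass (adjusted p = 0.0893 and 0.0943). ACTA2 differed by -0.43 ± 0.21 (adjusted p = 0.187), and CNN2, ACTN1, VCL and FLNA by 0.12 or less in either direction, VCL changing sign after rescaling. With the batch as a block 6 genes passed against 43.5% of all entries (33.8% higher and 9.72% lower): ACTA2 was lower as well (adjusted p = 0.0337), and TPM2 (0.0085) and CNN3 (0.00253) were higher. In the main model, leaving out any siLATS1/2, siLATS1/2/p53 or sip53 library lowered the share of all entries called. Leaving out a siControl library did not. MYL9 was lost whichever library was left out (adjusted p = 0.0532 to 0.173). No gene passed without siLATS1/2 replicate 1, siLATS1/2 replicate 2 or siLATS1/2/p53 replicate 1, and 1 passed without siLATS1/2/p53 replicate 2.

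Adding LATS1/2 siRNA to p53 siRNA gave the largest difference found for any of the 10 genes, that of MYL9, which was 4.70-fold higher in siLATS1/2/p53 cells than in sip53 cells (log2 difference 2.23 ± 0.18 SE, adjusted p = 0.00159). Because sip53 cells lay near the floor, below which no level was recorded, this fold depends on values close to it. TAGLN was 3.11-fold higher (1.64 ± 0.12, adjusted p = 0.00129), TPM1 2.08-fold (1.06 ± 0.15, adjusted p = 0.0121) and CNN3 1.86-fold (0.90 ± 0.14, adjusted p = 0.0201). These 4 of 10 genes compare with 3.66% of all entries called (2.54% higher and 1.12% lower). All 10 genes averaged higher in siLATS1/2/p53 cells, with no overlap of libraries in any. The share of all entries without such overlap was not counted, so this is not read as particular to these genes. The median difference of the 10 was 0.39, against 0.01 over all entries. The 6 that did not pass were FLNA (0.41 ± 0.11), TPM2 (0.38 ± 0.11), CNN2 (0.34 ± 0.20), ACTN1 (0.29 ± 0.10), ACTA2 (0.27 ± 0.21, adjusted p = 0.544) and VCL (0.13 ± 0.09). With the batch as a block FLNA, TPM2, CNN2 and ACTN1 passed too (adjusted p = 0.000826, 0.00683, 0.0098 and 0.00804), making 8 against 22.1% of all entries (12.7% higher and 9.42% lower). In the main model the share of all entries called fell whichever library was left out. MYL9 and TAGLN passed whichever library was left out, whereas the count fell to 2 without sip53 replicate 2 or either siLATS1/2/p53 library.

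**Figure D2:**
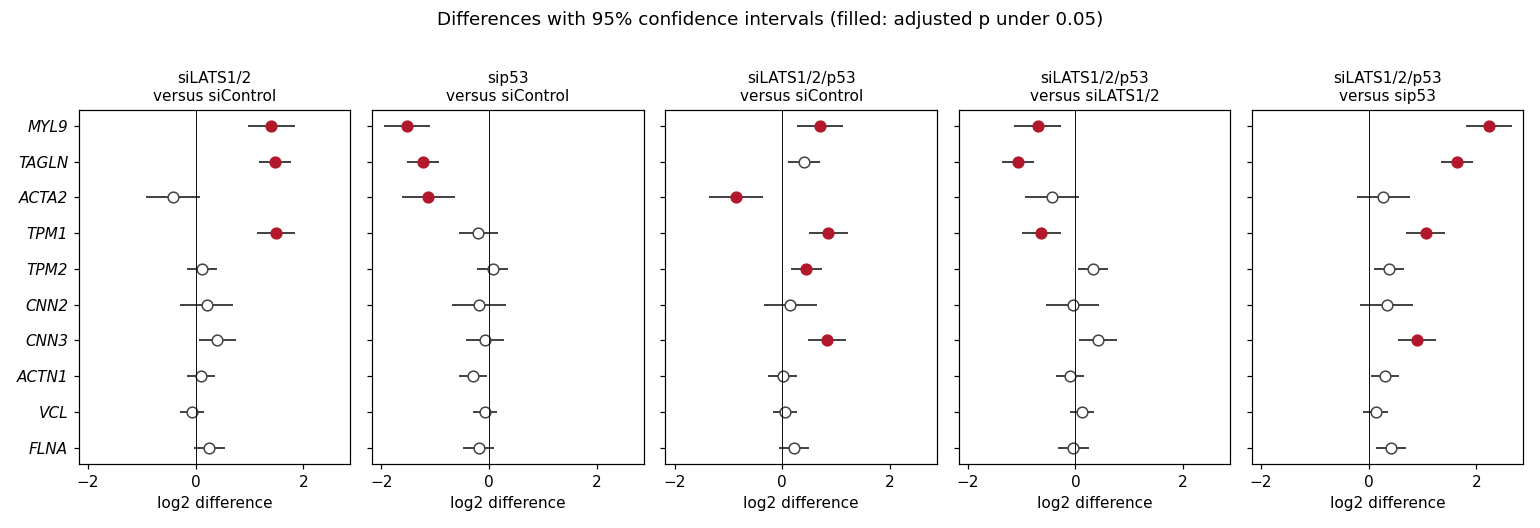
Fitted log2 difference of each of the 10 genes in the 5 pairwise comparisons, with bars for the 95% confidence interval; filled points passed the adjusted threshold of 0.05. MYL9 and TAGLN lie above 0 after LATS1/2 siRNA with or without p53 siRNA and below 0 after p53 siRNA, whereas ACTA2 is below 0 in both single knockdowns.

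Whether LATS1/2 siRNA acted differently in the presence of p53 siRNA was tested as an interaction. No gene of the 10 passed, and 0 of the 12315 entries did by limma, although 6.55% had an unadjusted p under 0.05. Among the 10 that unadjusted threshold was passed by MYL9 (interaction 0.82 ± 0.25 SE, unadjusted p = 0.0121, adjusted p = 0.74), ACTA2 (0.69 ± 0.29, unadjusted p = 0.0475, adjusted p = 0.749) and CNN3 (0.49 ± 0.20, unadjusted p = 0.0433, adjusted p = 0.749). For MYL9 the difference made by LATS1/2 siRNA was 2.33 in batch 1 and 2.14 in batch 2 with p53 siRNA, against 1.38 and 1.44 without it. For TAGLN it was 1.55 and 1.72 with p53 siRNA, against 1.52 and 1.43 without it, and the interaction was 0.16 ± 0.17 (adjusted p = 0.867). TPM1 went the other way, with an interaction of -0.44 ± 0.21 (adjusted p = 0.749; 0.0461 in a fit that both blocked the batch and rescaled the libraries). With the batch as a block alone 2.03% of all entries passed (1.75% above 0 and 0.276% below) and none of the 10 genes did, MYL9 coming nearest (adjusted p = 0.053).

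**Figure D3:**
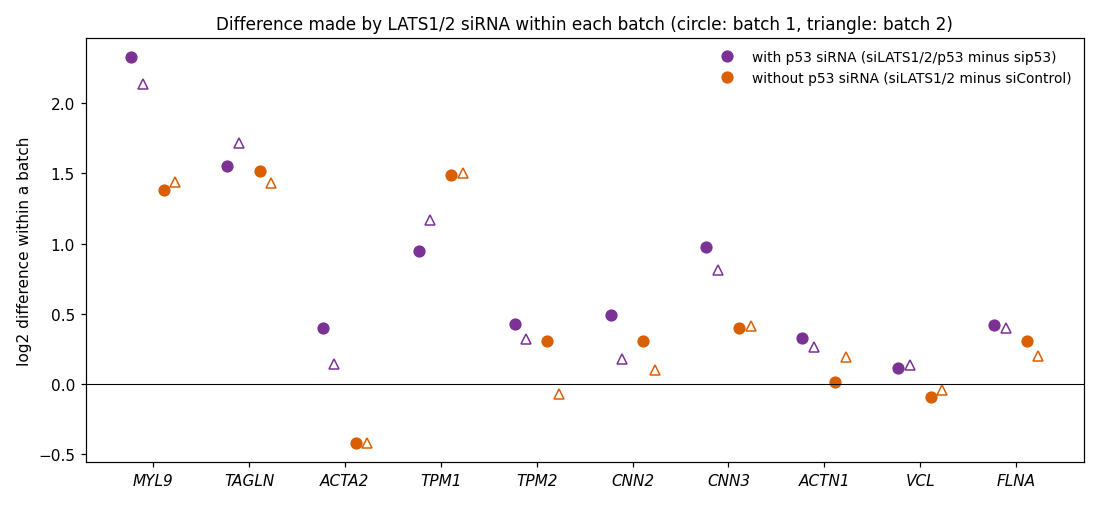
Difference in log2 level made by LATS1/2 siRNA within batch 1 (circles) and batch 2 (triangles), with p53 siRNA (siLATS1/2/p53 minus sip53) and without it (siLATS1/2 minus siControl), for each of the 10 genes. MYL9 lies higher with p53 siRNA (2.33 and 2.14) than without it (1.38 and 1.44), and the TAGLN points lie together between 1.43 and 1.72.

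The rest of the contractile machinery was followed in 6 lists that leave out the 10 genes: nonmuscle myosin, contractility regulators, actin and filament assembly, actin binding and crosslinking, focal adhesion plaque, and SRF with its cofactors. Together they held 74 genes, of which 73 were tested and FLNC was at the floor. In siLATS1/2 cells relative to siControl cells 3 of the 73 rose and 3 fell (8.22%, against 7.7% of all entries), with a median difference of -0.05. The genes that rose were RND3, whose protein opposes contractility (0.74 ± 0.13 on the log2 scale, SE), LIMK2, a kinase that inactivates cofilin (0.65 ± 0.11), and LIMA1, an actin-bundling protein (0.60 ± 0.08). Those that fell were the myosin heavy chain gene MYH10 (-0.39 ± 0.08), the kinase gene ROCK1 (-0.36 ± 0.08) and the adhesion adaptor gene LIMS1 (-0.63 ± 0.15). The 20 plaque genes thus gave 0 higher and 1 lower, the 7 myosin genes 0 and 1, and the 3 SRF genes 0 and 0.

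In sip53 cells relative to siControl cells 0 of the 73 rose and 5 fell (6.85%, against 3.86% of all entries), with a median of -0.09. They were TMSB4X, which encodes an actin monomer-binding peptide and has near-identical copies (-1.19 ± 0.09), the myosin phosphatase subunit gene PPP1CB (-0.87 ± 0.15), LIMA1 (-0.83 ± 0.08), and the adhesion genes FERMT2 (-0.76 ± 0.13) and FHL2 (-0.63 ± 0.11). LIMA1 was at 12.18 and 12.29 in siLATS1/2/p53 cells, 13.25 and 13.37 in siLATS1/2 cells, 11.87 and 11.88 in sip53 cells, and 12.69 and 12.73 in siControl cells. Its groups did not overlap and it was highest in siLATS1/2 and lowest in sip53 cells, as MYL9 and TAGLN were. Unlike them it was lower in siLATS1/2/p53 than in siControl cells.

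In siLATS1/2/p53 cells relative to siControl cells 4 of the 73 rose and 6 fell (13.7%, against 14.6% of all entries). Those that rose were the myosin light chain gene MYL6 (0.42 ± 0.10), RND3 (0.56 ± 0.13), the alpha-actinin gene ACTN4 (0.67 ± 0.18) and the SRF cofactor gene MKL1 (0.60 ± 0.11). Those that fell were PPP1CB (-0.88 ± 0.15), FERMT2 (-0.63 ± 0.13), TMSB4X (-0.59 ± 0.09), LIMA1 (-0.47 ± 0.08), FHL2 (-0.40 ± 0.11) and the kinase gene CDC42BPB (-0.33 ± 0.08). Relative to sip53 cells 6 rose and 0 fell (8.22%, against 3.66%): MYL6, RND3, TMSB4X, LIMK2, the actin-binding protein gene LASP1 (0.68 ± 0.12) and MKL1. MKL1 was at 10.71 and 10.82 in siLATS1/2/p53 cells and 10.57 and 10.62 in siLATS1/2 cells, against 10.22 and 10.19 in sip53 cells and 10.02 and 10.31 in siControl cells. Both groups with LATS1/2 siRNA lay above the other 2. The difference between siLATS1/2 and siControl cells did not pass (0.43 ± 0.11, adjusted p = 0.0593, or 0.00207 with batch blocked). Relative to siLATS1/2 cells, siLATS1/2/p53 cells had 4 of the 73 higher and 5 lower (12.3%, against 14.5%). The 4 were MYH10, RHOA, DIAPH3 and LIMS1, and the 5 were PPP1CB, TMSB4X, LIMK2, FERMT2 and LIMA1. LIMA1 fell most among these 5 (-1.07 ± 0.08), the same log2 difference to 2 decimals as that of TAGLN. With the batch as a block 25 to 34 of the 73 passed in each of the 5 pairwise comparisons (34.2% to 46.6%), against 22.1% to 43.5% of all entries.

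Genes whose profiles were most like those of MYL9 and TAGLN were sought among entries with a mean level above the median of those tested, by the root-mean-square difference of centred log2 values over the 8 libraries. For MYL9, whose own root-mean-square deviation was 1.09, the nearest of 6116 candidates were PLK2 (0.215), CCDC80 (0.250), TAGLN (0.258), CYR61 (0.383) and THBS1 (0.386). For TAGLN, with a deviation of 0.972, the nearest of 6115 were PLK2 (0.148), CYR61 (0.261), GPRC5A (0.299), FADS3 (0.343) and SCD5 (0.356). MYL9 lay below the median level and so could not be listed for TAGLN. PLK2, which encodes a polo-like kinase, was nearest to both, with group means of 11.44 in siLATS1/2/p53, 12.20 in siLATS1/2, 9.58 in sip53 and 10.68 in siControl cells. CYR61, which encodes a matricellular protein, was within the nearest 5 of both. The measure covers 4 treatments of 1 cell line and speaks only of level.

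**Figure D4:**
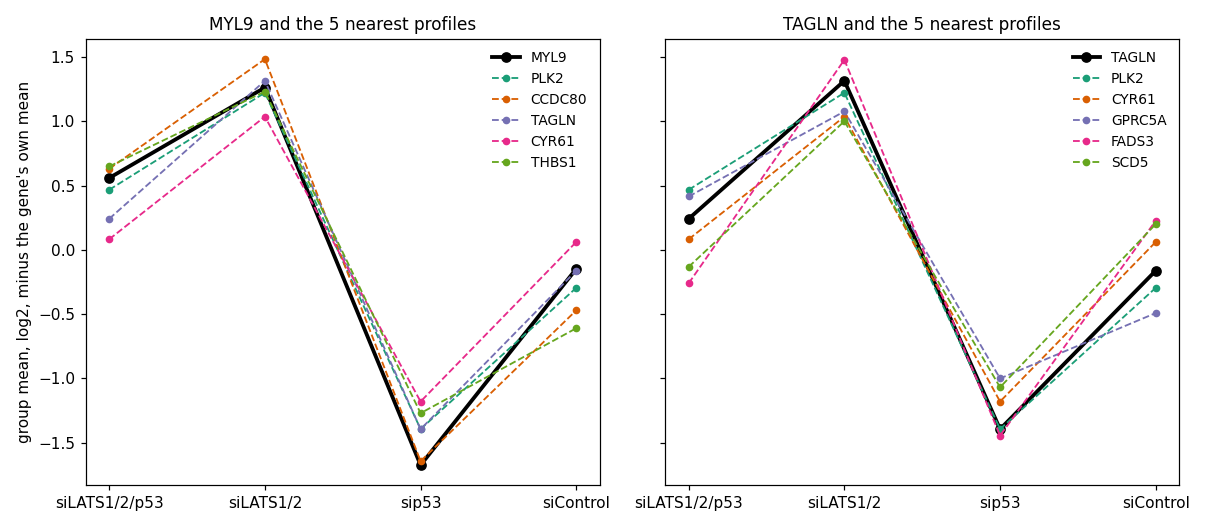
Group mean log2 level, minus the own mean of each gene, for MYL9 (left) and TAGLN (right) and the 5 genes nearest to each, in the 4 siRNA groups; lines join the groups of a gene. All plotted genes are highest in siLATS1/2 and lowest in sip53 cells, an order that comes with choosing them by closeness over these same libraries. PLK2 is nearest to both (0.215 from MYL9 and 0.148 from TAGLN).

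The library kit does not keep strand, so reads from exons shared by genes on opposite strands cannot be told apart. In the GENCODE v29 annotation (GRCh38), 12.8% of the exonic bases of ACTA2 on chromosome 10 overlap FAS, which lies on the other strand, and 17.3% overlap ACTA2-AS1. FAS is itself a well-known p53 target. FAS was at 11.63 and 11.39 in siLATS1/2/p53 cells, 11.88 and 11.85 in siLATS1/2 cells, 11.73 and 11.40 in sip53 cells, and 11.85 and 11.60 in siControl cells. FAS differed by -0.16 ± 0.14 on the log2 scale between sip53 and siControl cells (SE, adjusted p = 0.565), and it passed in none of the 5 pairwise comparisons. ACTA2, at 6.43 to 7.88, lay far below FAS, so a small log2 change of FAS can exceed the ACTA2 change on the linear scale. The part of shared reads in the level of ACTA2 was not tested. For TAGLN on chromosome 11, 11.4% of the exonic bases overlap PCSK7, and for VCL on chromosome 10, 11.1% overlap AP3M1; neither partner passed in any comparison. For TPM1 on chromosome 15, 16.1% overlap TPM1-AS, and MYL9 on chromosome 20, TPM2 on chromosome 9 and CNN3 on chromosome 1 have no such overlap.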

How the data were processed

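Polyadenylated RNA of 8 MCF10A libraries was sequenced; per the labels' protocols the kit was TruSeq RNA version 2. TopHat and hg19 are named in the submitters' processing notes. How reads were counted, annotated and scaled, why a floor was set and how deep each library was sequenced is not given in the sources used, so counting precision is unknown. The deposited values were used as log2 levels. Under base 2, a low quantile of the gaps between linear values at 70 to 80 was 0.996 to 0.999 times that just above 32. For the same entries under base e it was 1.40 to 1.42 times. Nothing lies below a deposited value of 5, so changes of low genes are understated. Signal above this floor summed to between 23.7 and 24.9 M linear units in a library, from 11756 to 12064 entries.

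An entry was tested if at least 2 libraries lay above the floor, which held for 12315 of 29991 entries (17422 were at the floor throughout); all 10 members were above it in all 8 libraries. A single limma model (version 3.58.1, R 4.3.3) with a trended prior variance covered the 4 groups and had no batch term. Benjamini-Hochberg adjustment used a threshold of 0.05. The members and gene lists were chosen with earlier results of these data known, so their counts are descriptions and no list was tested as a set. Named from the other lists were genes past the threshold, at most 3 a list and comparison by smallest p, and for MYL9 and TAGLN the 5 nearest profiles. The check of the other siRNA target is not reported here.

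Per the labels, a replicate number marks a batch of cells. Deviations of same-numbered libraries from their group means gave correlations of 0.565 to 0.726 in 6 pairs of groups. For the members the blocked value is therefore printed where it changes a call or moves a count by over 1.5 times. For other genes it is given only in part. The alternatives were another scaling, a pseudocount of 1 or 32 on the linear values, no filter or one on all 8 libraries, a fit without the trend, only the groups compared, the replicate block and each library left out. A block with rescaling was added after seeing the data.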

Additional observations from a re-analysis of the deposited data

Results flagged for a closer look

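In 3 of the 10 genes an effect of an siRNA took opposite signs in both batches depending on the other siRNA. No test of such a difference passed, and no cause was tested. The share of all entries with such opposite signs was not counted, so the 3 genes are not read as particular.

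For ACTA2, the smooth muscle actin gene, LATS1/2 siRNA made a log2 difference of 0.40 in batch 1 and 0.14 in batch 2 in the presence of p53 siRNA, against -0.42 and -0.42 in its absence. The interaction was 0.69 ± 0.29 (SE, limma, adjusted p = 0.749, or 0.112 with batch blocked).

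For CNN3, a calponin gene, p53 siRNA made a difference of 0.54 and 0.30 in the presence of LATS1/2 siRNA, against -0.03 and -0.11 in its absence. The interaction was 0.49 ± 0.20 (adjusted p = 0.749, or 0.0709 with batch blocked).

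For VCL, the vinculin gene, LATS1/2 siRNA made a difference of 0.12 and 0.14 in the presence of p53 siRNA, against -0.09 and -0.04 in its absence. Conversely p53 siRNA made a difference of 0.12 and 0.12 in the presence of LATS1/2 siRNA, against -0.09 and -0.06 in its absence. Both are the same interaction of 0.19 (adjusted p = 0.794, or 0.248 with batch blocked), and all differences lie within the 0.22 that VCL spans over the 8 libraries. After rescaling of the libraries the difference between siLATS1/2 and siControl cells became 0.02 and that between siLATS1/2/p53 and siLATS1/2 cells -0.04, so the opposite signs of VCL depend on the scaling.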

How the results depend on the processing

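None of the 18 calls changed sign in any alternative run, but 15 of the 60 differences of the 10 genes (6 comparisons) did, none of which had passed. The number of the 10 genes that passed was 3, 3, 5, 3 and 4 for siLATS1/2 versus siControl, sip53 versus siControl, siLATS1/2/p53 versus siControl, siLATS1/2/p53 versus siLATS1/2 and siLATS1/2/p53 versus sip53. With no filter on low values, where the 17422 entries at the floor entered the fit, it was 0 in all 5 (0.0667% to 0.854% of all entries). With only the libraries of the groups compared, which leaves 2 against 2, it was 0, 0, 1, 0 and 0 (3.04% of all entries in the third, 0 in the others). With the replicate block, which takes up the pairing by batch, it became 5, 4, 7, 6 and 8, and with the block and rescaling together 6, 7, 6, 7 and 8 (28.2%, 24.8%, 38.3%, 34.1% and 23% of all entries), with 1 gene for the interaction, where 0 had passed (0.909% of all entries). Leaving out each library in turn gave 1 to 3, 0 to 2, 0 to 4, 0 to 2 and 2 to 4, and 0 to 0 for the interaction. The share of all entries called moved too, to 0.349% to 5.68%, 0.146% to 1.34%, 4.49% to 10.3%, 0.0974% to 14.9% and 0.398% to 2.94%. Of 18 calls, 3 passed in all 8 of these fits: TAGLN in siLATS1/2 versus siControl, and MYL9 and TAGLN in siLATS1/2/p53 versus sip53. Rescaling and a fit without the trend each lost only TPM2 in siLATS1/2/p53 versus siControl (adjusted p = 0.0568 and 0.0611). MYL9 in sip53 cells lay near the floor but above it, and depth per library is unknown.

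The changes of sign all lay near 0. Rescaling, with or without the block, moved VCL to 0.018 in siLATS1/2 versus siControl, to -0.020 in siLATS1/2/p53 versus siControl and to -0.038 in siLATS1/2/p53 versus siLATS1/2, and ACTN1 to -0.067 in siLATS1/2/p53 versus siControl. Leaving out a library gave ranges that include 0 in 14 differences. In siLATS1/2 versus siControl these were ACTN1 (-0.0077 to 0.21), CNN2 (-0.035 to 0.44), TPM2 (-0.018 to 0.26) and VCL (-0.13 to 0.0019). In sip53 versus siControl they were CNN2 (-0.42 to 0.055), CNN3 (-0.17 to 0.028) and TPM1 (-0.39 to 0.0016). In siLATS1/2/p53 versus siControl they were ACTN1 (-0.017 to 0.029), CNN2 (-0.089 to 0.39) and VCL (-0.014 to 0.12). In siLATS1/2/p53 versus siLATS1/2 they were ACTN1 (-0.21 to 0.014), CNN2 (-0.19 to 0.082) and FLNA (-0.099 to 0.019), and for the interaction CNN2 (-0.11 to 0.37). The cause was not tested.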

Other observations

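Of the 10 genes, 8 differed between the 2 batches of cells in the same direction in every siRNA group. The share of all entries that did so was not counted. Over all entries tested, deviations of same-numbered libraries correlated at 0.565 to 0.726, so a shared direction was not particular to these genes. ACTA2, CNN2, ACTN1 and FLNA were higher in batch 2 in all 4 groups, and MYL9, TPM1, CNN3 and VCL were lower. TAGLN and TPM2 differed in sign between groups. For CNN2 the difference between batches, 0.16 to 0.48 on the log2 scale, was of the size of its differences between siRNA groups, and for MYL9 it ran from -0.42 to -0.03, against a range of 3.07 over the libraries. What the batches differed in was not tested.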
